A study of Mus musculus with 12 samples.

Results

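The miR-219 and miR-338 precursors were examined in mouse cortex, as the 4 rows of the deposited small RNA table that are named mmu-mir-338 or begin with mmu-mir-219, out of 589 precursor rows in all. These rows were mmu-mir-338, mmu-mir-219a-1, mmu-mir-219a-2 and mmu-mir-219b. The groups were wild-type mice (WT), WT mice given ethanol (WT + EtOH), mice lacking Toll-like receptor 4 (TLR4-KO) and TLR4-KO mice given ethanol (TLR4-KO + EtOH), with 3 libraries each. All mice were female C57BL/6J animals on a solid diet, 7 weeks old when the treatment began, and they drank either water or 10% (v/v) alcohol for 5 months. The paper names Harlan Ibérica for the WT mice and S. Akira (Osaka University) for the TLR4-KO mice. Genotype and source of the animals therefore cannot be told apart here. Each library held pooled RNA of 3 mice, from 9 mice per group, so every SD below is a spread between pools and not between animals. The receptor was missing from the whole body, and its mRNA is not measured in a small RNA library, so the genotype could not be checked here.

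MicroRNAs are cut from hairpin precursors, and bases 2 to 8 of the mature strand, the seed, pair with target mRNAs. miR-219 and miR-338 are enriched in oligodendrocytes, the cells that make central myelin, where they promote the step from progenitor to myelinating cell by repressing factors that hold progenitors back, among them Sox6, Hes5 and the PDGF receptor alpha. Cortex holds neurons, astrocytes, microglia and vessel cells beside oligodendrocytes, and in such bulk tissue fewer cells of a type and less RNA per cell cannot be told apart.

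The mature strands are shown because they decide which precursors can be told from each other by sequence. Sequences are those of RefSeq for GRCm38.p6, 5′ to 3′, with the seed in capitals. The reference used held no 3p strand for mmu-mir-219a-2 or mmu-mir-3065, so none is shown. A missing entry is not evidence that no such strand is made.
mmu-miR-338-3p: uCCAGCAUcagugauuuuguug
mmu-miR-338-5p: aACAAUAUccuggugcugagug
mmu-miR-3065-5p: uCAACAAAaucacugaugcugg
mmu-miR-219a-5p: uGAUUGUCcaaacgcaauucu
mmu-miR-219b-5p: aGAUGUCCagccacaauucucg
mmu-miR-219b-3p: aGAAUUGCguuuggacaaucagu
mmu-miR-219a-1-3p: aGAGUUGCgucuggacgucccg

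miR-219a-5p, the strand usually called miR-219, is the same 21 bases from mmu-mir-219a-1 and mmu-mir-219a-2, so a read of it cannot be given to either precursor. None of these seeds was shared with another mature name among the 1679 in the RefSeq table. miR-219b therefore carries the family name without the miR-219a seed. Over 21 of its 22 bases, miR-338-3p is the exact reverse complement of miR-3065-5p, and all 21 bases of miR-219a-5p are the reverse complement of a stretch of miR-219b-3p.

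These complements follow from the positions. The hairpin of mmu-mir-338 lies at chr11:120014765-120014862 (GRCm38, minus strand) in an intron of Aatk, a kinase gene transcribed from the same strand. The hairpin of mmu-mir-3065 lies at chr11:120014767-120014853 on the plus strand, wholly within it and antisense to Aatk. In the same way mmu-mir-219b, at chr2:29845647-29845711 on the plus strand, lies within mmu-mir-219a-2, at chr2:29845631-29845727 on the minus strand, where no other gene is annotated and the nearest protein-coding gene, Urm1, is 629 bases from mmu-mir-219a-2. The hairpin of mmu-mir-219a-1 lies at chr17:34024983-34025092 on the minus strand, outside other genes and 303 bases from Ring1, opposite mmu-mir-219c, which has no row in the table. Whether the counting used the strand is not given in the sources used here, and without strand the reads of such partners cannot be told apart.

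The overlapping hairpins at both expressed places are shown with the annotated mature strands in capitals.
mmu-mir-338: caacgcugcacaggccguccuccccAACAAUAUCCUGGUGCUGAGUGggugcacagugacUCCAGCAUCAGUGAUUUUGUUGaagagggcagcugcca
mmu-mir-3065: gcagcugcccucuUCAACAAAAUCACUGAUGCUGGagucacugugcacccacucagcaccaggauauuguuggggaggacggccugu
mmu-mir-219a-2: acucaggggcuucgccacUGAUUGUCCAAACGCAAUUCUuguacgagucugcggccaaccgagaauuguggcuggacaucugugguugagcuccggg
mmu-mir-219b: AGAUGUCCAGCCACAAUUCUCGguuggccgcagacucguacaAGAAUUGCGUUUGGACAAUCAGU

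**Figure D1:**
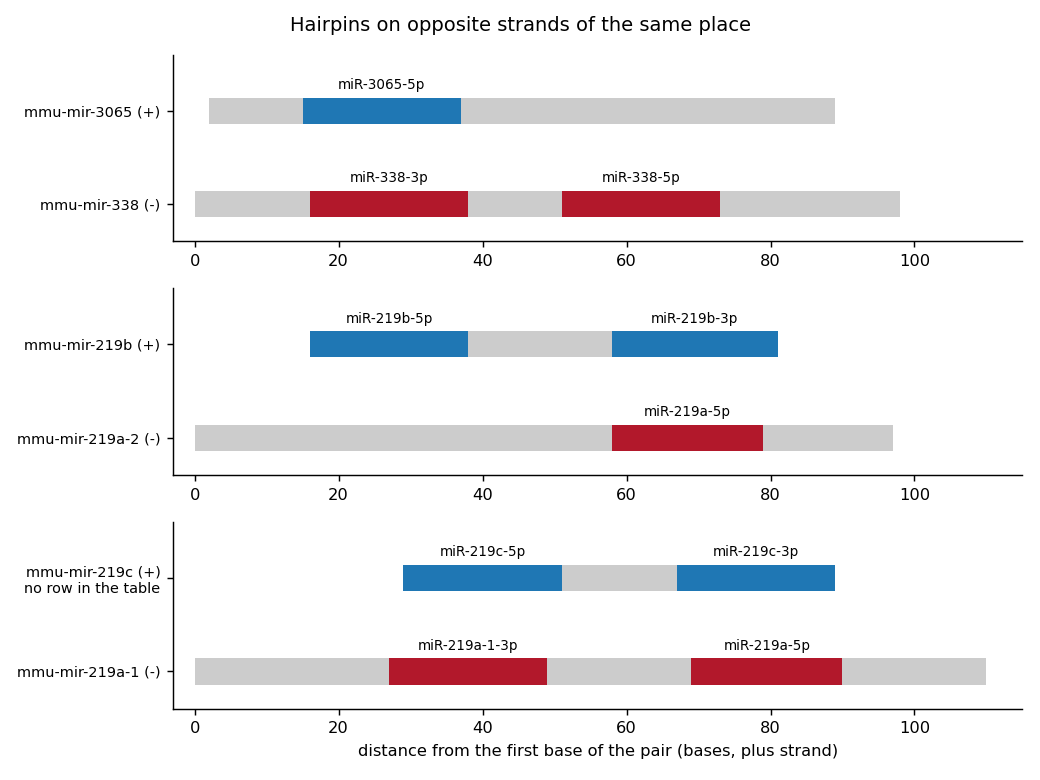
Hairpins (grey) and annotated mature strands (blue, plus strand; red, minus strand) at the 3 places, against the distance in bases from the first base of each pair. Mature strands of opposite hairpins sit over each other at each place, miR-338-3p over miR-3065-5p and miR-219a-5p over miR-219b-3p.

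The table holds normalised values without a unit, here called scores, that run from 0 to 135 in every library. The read depth is not in the table. Of the 589 precursors 324 were above 0 in at least 1 library, 190 were above 0 in all 12, and 265 were listed at 0 throughout. Those 265 can neither reach a p under 0.05 nor separate groups. Shares of all precursors given below are therefore lower than shares of the 324 would be. Between 216 and 270 precursors were above 0 in a library, and the lowest level above 0 ranged from 1.25 to 14.1, so low precursors could be listed in some libraries and not in others. A 0 is not evidence of absence: mmu-mir-23a, mmu-mir-23b and mmu-mir-27a, broadly expressed miRNAs, were at 0 in all 12 libraries.

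mmu-mir-338 and mmu-mir-219b were above 0 in all 12 libraries, mmu-mir-219a-2 in 5, and mmu-mir-219a-1 in 1. By mean score over the 12 libraries they ranked 120, 156, 272 and 315 among the 324 precursors above 0. mmu-mir-338 varied about as much as other precursors, with an SD over all libraries of 5.03 beside a median of 4.51 over the 190. mmu-mir-219b varied more, with an SD of 7.27 that ranked 17 of 190 from the highest.

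**Figure D2:**
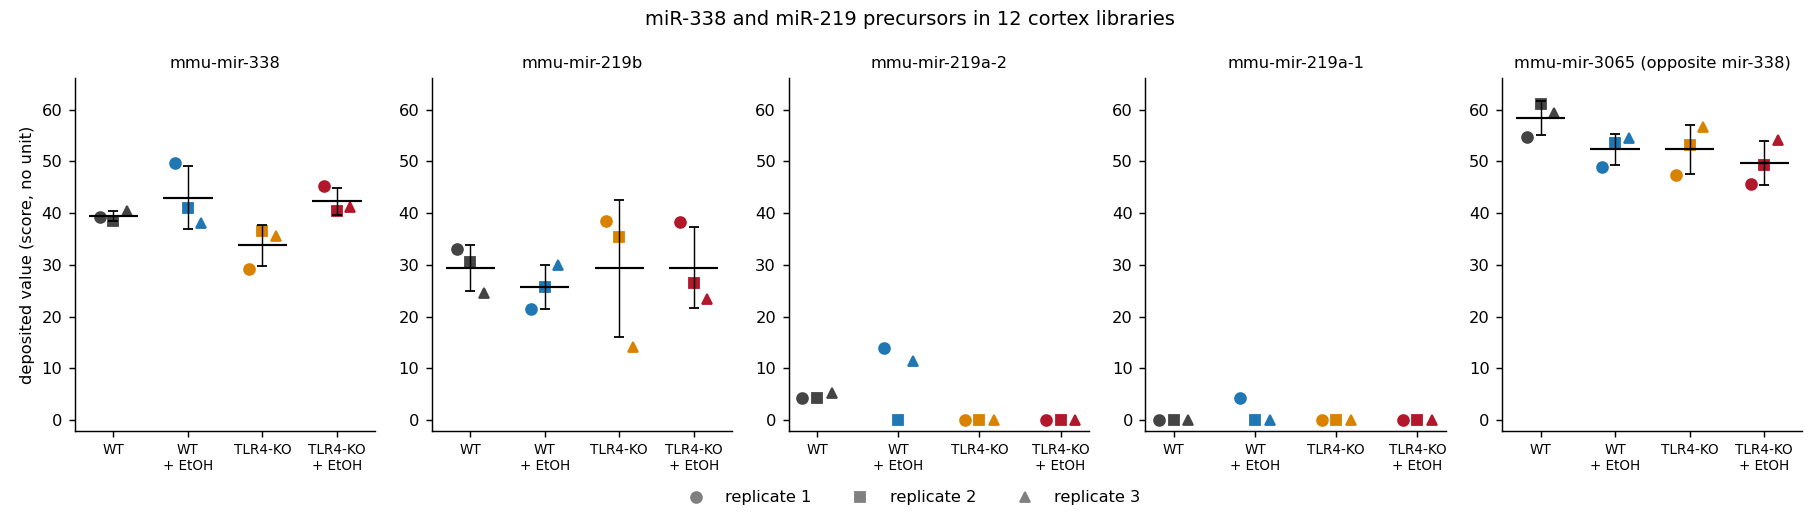
Deposited score (no unit) of the 4 precursors and of mmu-mir-3065 in each library by group, with symbols for the replicate number; horizontal lines and bars are the mean and SD of 3 libraries for precursors above 0 in all 12. mmu-mir-338 sits lowest in TLR4-KO, and mmu-mir-219a-2 is at 0 in all 6 TLR4-KO libraries.

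mmu-mir-338, the precursor of miR-338-3p, had scores of 39.3, 38.5 and 40.4 in WT, 49.8, 41.0 and 38.1 in WT + EtOH, 29.2, 36.5 and 35.5 in TLR4-KO, and 45.2, 40.4 and 41.2 in TLR4-KO + EtOH. The 3 TLR4-KO libraries were the lowest of the 12, and the WT + EtOH libraries lay on both sides of the WT range. The group means were 33.7 ± 3.96 in TLR4-KO, 39.4 ± 0.937 in WT, 42.2 ± 2.58 in TLR4-KO + EtOH and 43.0 ± 6.06 in WT + EtOH (SD, n = 3 each). In this order of levels TLR4-KO and WT did not overlap, WT and TLR4-KO + EtOH met at 40.4, and both alcohol groups overlapped.

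The question the design puts first is whether chronic alcohol changes the precursors in WT and in TLR4-KO mice. In TLR4-KO mice, mmu-mir-338 was 8.50 score units higher with alcohol (SE 3.10, 95% interval 1.40 to 15.6), and the groups did not overlap, as for 3.90% of the 589 precursors in this direction. The difference had an unadjusted p of 0.0245 in limma, where 4.24% of all precursors were higher at an unadjusted p under 0.05, and did not pass after Benjamini-Hochberg adjustment over all precursors (adjusted p = 0.556). The exact two-sided permutation test gave p = 0.1, the smallest that 3 libraries against 3 allow. In WT mice, mmu-mir-338 was 3.59 units higher with alcohol (SE 3.10, interval -3.52 to 10.7, adjusted p = 1 in limma, exact p = 0.5). This value rested on WT + EtOH replicate 1, without which the difference was 0.192. Without TLR4-KO replicate 1, the library with the lowest score, the difference in TLR4-KO mice was 6.23.

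Averaged over both genotypes, mmu-mir-338 was 6.04 units higher with alcohol (SE 2.19, interval 1.02 to 11.1). It was above the mean of its untreated genotype group in 5 of 6 alcohol libraries. The unadjusted p was 0.0239 and the adjusted p 0.381 in limma, while the exact permutation test within genotypes gave p = 0.025 over 400 rearrangements, of which 0.005 is the smallest possible. An unadjusted p under 0.05 with a higher value was reached by 4.75% of all precursors in this comparison. The alcohol difference in TLR4-KO mice exceeded that in WT mice by 4.91 units (SE 4.39, interval -5.13 to 15.0, adjusted p = 1 in limma, exact p = 0.415), so the genotypes were not shown to differ in it. Leaving out WT + EtOH replicate 1 gave 8.31, leaving out replicate 3 of that group gave 2.49, and leaving out TLR4-KO replicate 1 gave 2.65 (adjusted p of 0.440 or more in limma). The exact test of this difference shuffled libraries within genotypes. It thus asks whether alcohol had no effect in either genotype, and cannot decide whether its effects differed.

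Without alcohol, the TLR4-KO minus WT difference of mmu-mir-338 was -5.64 score units (SE 3.10, interval -12.7 to 1.46, adjusted p = 0.554 in limma). The groups did not overlap, as for 8.49% of precursors in this direction, and the exact permutation p was 0.1. With alcohol the genotypes differed by -0.731 (interval -7.84 to 6.37, adjusted p = 1 in limma, exact p = 0.9). Averaged over treatments the difference was -3.19 (interval -8.21 to 1.84, adjusted p = 0.961 in limma, exact p = 0.205). This average was -1.49 without WT + EtOH replicate 1 and -2.05 without TLR4-KO replicate 1. Without TLR4-KO replicate 1 the difference in untreated mice was -3.38.

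mmu-mir-219b, antisense to mmu-mir-219a-2, scored 33.1, 30.5 and 24.5 in WT and 21.5, 25.7 and 30.1 in WT + EtOH. It scored 38.5, 35.3 and 14.1 in TLR4-KO and 38.3, 26.5 and 23.5 in TLR4-KO + EtOH. All groups overlapped, and the range within TLR4-KO covered all other values. The means were 29.4 ± 4.41, 25.7 ± 4.29, 29.3 ± 13.3 and 29.4 ± 7.83 in the same order (SD, n = 3 each). The 14.1 of TLR4-KO replicate 3 was the lowest level above 0 in that library, which 3 precursors shared.

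No difference of mmu-mir-219b passed the test in limma (adjusted p = 1 in all 7 comparisons). Alcohol gave a difference of -3.66 in WT (SE 6.65, interval -18.9 to 11.6, exact p = 0.4) and of 0.118 in TLR4-KO mice (interval -15.1 to 15.4, exact p = 1). The value in WT ran from -6.09 without WT replicate 3 to -1.53 without WT + EtOH replicate 1. The TLR4-KO minus WT difference was -0.0928 without alcohol (interval -15.3 to 15.1) and 3.68 with alcohol (interval -11.6 to 18.9). These intervals are wide beside the mean of 28.5 over all libraries, so even large differences were not detectable. Without TLR4-KO replicate 3 the genotype difference in untreated mice was 7.52, and without TLR4-KO replicate 1 it was -4.70.

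mmu-mir-219a-2, which together with mmu-mir-219a-1 encodes miR-219a-5p, was listed at 4.20, 4.23 and 5.23 in WT and at 13.9, 0 and 11.3 in WT + EtOH. It was listed at 0 in all 3 TLR4-KO and all 3 TLR4-KO + EtOH libraries. Thus 5 of 6 libraries of WT genotype and 0 of 6 libraries of TLR4-KO genotype were above 0. The 4.23 of WT replicate 2 and the 11.3 of WT + EtOH replicate 3 were the lowest levels above 0 in those libraries, shared by 15 and 17 precursors.

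The same pattern, at 0 in all 6 libraries of TLR4-KO genotype and above 0 in at least 5 of the other 6, was found for 2 of 589 precursors (0.340%), the other being mmu-mir-3470b, and the mirrored pattern for 0. The limit of 5 matches the values of mmu-mir-219a-2 itself, so its place among the 2 was fixed in advance. With the limit lowered to at least 1 of the other 6 libraries it held for 25 precursors (4.24%), and the mirrored pattern for 17 (2.89%). The lowest level above 0 was 1.25, 4.23 and 4.08 in the WT libraries and 1.25, 8.17 and 11.3 in the WT + EtOH libraries, so it differed within and between groups. The highest WT score of mmu-mir-219a-2, 5.23, was below the lowest level above 0 in 4 of the 6 TLR4-KO genotype libraries, where that level was 11.3, 14.1, 5.26 and 7.29. In the other 2 it was 4.20 and 4.08. The part of these lowest levels in the result was not tested.

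With every 0 kept as 0, mmu-mir-219a-2 differed by -4.56 score units between TLR4-KO and WT without alcohol (interval -11.4 to 2.25, adjusted p = 0.756 in limma, exact p = 0.1), and the groups did not overlap, as for 8.49% of precursors in this direction. It was -2.39 after quantile normalisation and -2.53 with the number of precursors above 0 in a library as a covariate (adjusted p = 1 in limma in both). With alcohol the difference was -8.41 (unadjusted p 0.0213, adjusted p = 0.738 in limma, exact p = 0.4), and 1.87% of all precursors were lower at an unadjusted p under 0.05. Averaged over treatments it was -6.48 (SE 2.10, interval -11.3 to -1.67), with an unadjusted p of 0.0143, an adjusted p of 0.351 in limma and an exact permutation p of 0.02. A lower value with an unadjusted p under 0.05 was reached by 4.24% of precursors in this averaged comparison. The alcohol difference in WT mice was 3.85 (SE 2.97, adjusted p = 0.926 in limma, exact p = 0.4).

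The calls for mmu-mir-219a-2 turned on WT + EtOH replicate 2, where it was listed at 0. Without that library the averaged genotype difference was -8.58 (adjusted p = 9.56e-05 in limma), the difference between TLR4-KO and WT without alcohol kept its size of -4.56 at an adjusted p of 0.0122, and the alcohol difference in WT mice was 8.05 (adjusted p = 0.000850 in limma). Also without it, the genotype difference with alcohol was -12.6 (adjusted p = 0.000106 in limma), the difference of the alcohol effects -8.05 and averaged alcohol 4.03 (adjusted p = 0.00644 in limma for both). WT + EtOH then held 2 libraries, and all libraries of TLR4-KO genotype were at 0, so they added no spread. The small adjusted p-values rest on the small spread left at low scores and are not firm evidence of a difference. Without WT + EtOH replicate 1 instead, the alcohol difference in WT mice was 1.12 and passed no threshold (adjusted p = 1 in limma), and without WT + EtOH replicate 3 it was 2.38. When limma was given the untreated WT and TLR4-KO libraries alone, the -4.56 had an adjusted p of 0.0111. In that fit the SD was 0 in TLR4-KO and 0.583 in WT, so the same limit applies.

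mmu-mir-219a-1, the other source of miR-219a-5p, was listed at 0 in 11 libraries and at 4.23 in WT + EtOH replicate 1. That library also held the highest score of mmu-mir-219a-2, and it had 270 precursors above 0, as many as the highest of the 12. No comparison of mmu-mir-219a-1 passed the test (adjusted p of 0.806 or more in limma).

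Across the 4 precursors, limma called 0 at an adjusted p under 0.05 in each of the 7 comparisons. Among all 589 precursors it called 1.70% for WT + EtOH vs. WT, 0.340% for TLR4-KO + EtOH vs. TLR4-KO, 2.55% for TLR4-KO vs. WT and 0.509% for TLR4-KO + EtOH vs. WT + EtOH. It called 1.19% for the difference of the alcohol effects, 0.340% for alcohol averaged over genotypes and 1.36% for genotype averaged over treatments. At an unadjusted p under 0.05 the 4 precursors gave 4 results over the 7 comparisons, 2 of mmu-mir-338 and 2 of mmu-mir-219a-2, so 4 of 28, beside 9.48% of all results of the 589 precursors. The 9.48% includes the 265 precursors at 0 throughout, so the share among the 324 above 0 is higher. The 4 of 28 is therefore not shown to lie above it. The comparisons share libraries and are not independent of each other.

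**Figure D3:**
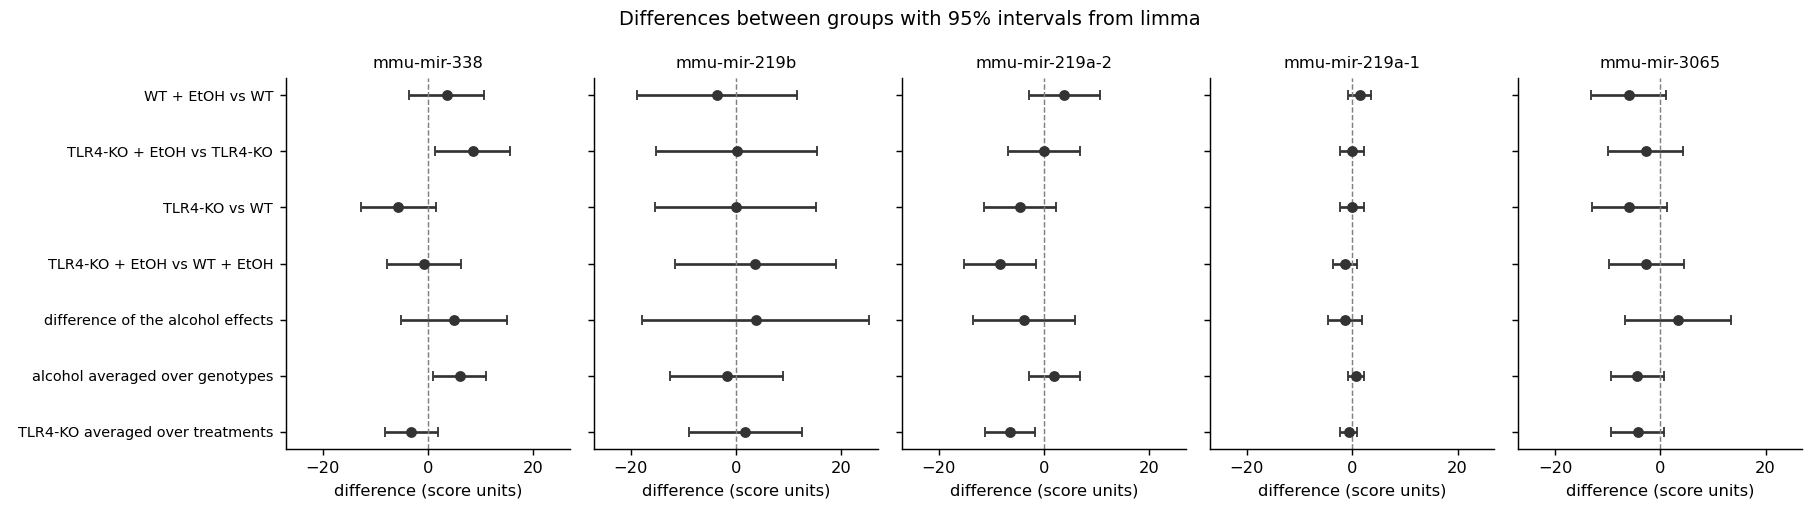
Differences in score units with 95% intervals from limma for the 4 precursors and mmu-mir-3065 in the 7 comparisons; the dashed line marks 0. Intervals of mmu-mir-338 lie above 0 for alcohol in TLR4-KO mice and for alcohol averaged over genotypes, and those of mmu-mir-219b reach far to both sides.

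The antisense partner mmu-mir-3065 scored 54.7, 61.0 and 59.3 in WT, 48.9, 53.4 and 54.5 in WT + EtOH, 47.3, 53.2 and 56.6 in TLR4-KO, and 45.6, 49.2 and 54.1 in TLR4-KO + EtOH. It was above mmu-mir-338 in 11 of 12 libraries, on a scale whose relation to length is not given. All 3 WT + EtOH libraries lay below the WT libraries, by a mean of -6.02 (SE 3.11, adjusted p = 0.527 in limma, exact p = 0.1), a separation found for 9.51% of precursors in this direction. In TLR4-KO mice the alcohol difference was -2.73 (adjusted p = 1 in limma, exact p = 0.5), and it ran from -5.28 without TLR4-KO replicate 1 to -0.624 without TLR4-KO replicate 3. The point estimates for alcohol were thus negative for mmu-mir-3065 and positive for mmu-mir-338 in both genotypes, and the difference between both precursors was not tested.

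The table held 13 pairs of overlapping hairpins on opposite strands among the 445 rows that matched a RefSeq hairpin, of which 12 were above 0. In 1 pair, mmu-mir-451a and mmu-mir-451b, the scores were within 1% of each other in every library. In mmu-mir-136 and mmu-mir-3071 the mean scores were 59.2 and 57.1. The Pearson r over 12 libraries was 0.993 for mmu-mir-374c and mmu-mir-374b, 0.990 for mmu-mir-337 and mmu-mir-3544, and 0.989 for mmu-mir-136 and mmu-mir-3071. It was 0.970 for mmu-mir-126a and mmu-mir-126b, -0.176 for mmu-mir-3065 and mmu-mir-338, and -0.183 for mmu-mir-219b and mmu-mir-219a-2. In the other pairs with an r it ran from -0.276 to 0.449, apart from 1 for mmu-mir-451a and mmu-mir-451b. Whether strand had a part in this was not tested. The partners described here had means of 53.1 for mmu-mir-3065 and 39.6 for mmu-mir-338, and of 28.5 for mmu-mir-219b beside a mmu-mir-219a-2 listed at 0 in 7 libraries. Unequal partners were found elsewhere too, with means of 31.9 and 65.0 for mmu-mir-24-2 and mmu-mir-3074-2, of 56.7 and 75.9 for mmu-mir-129b and mmu-mir-129-2, and of 3.72 and 68.4 for mmu-mir-24-1 and mmu-mir-3074-1.

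**Figure D4:**
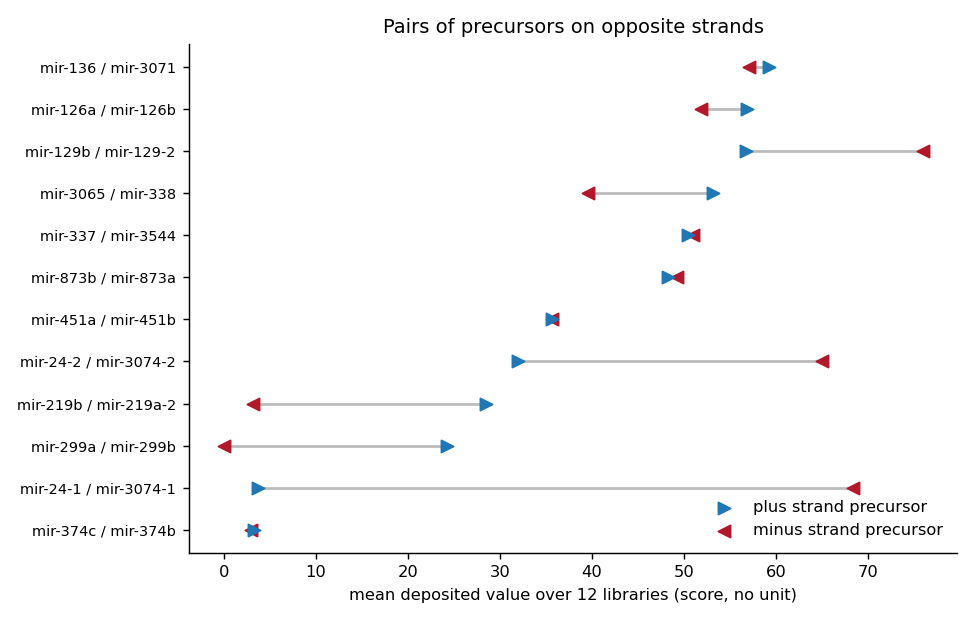
Mean score over 12 libraries (no unit) of the plus strand (blue) and minus strand (red) precursor in the 12 pairs above 0. The markers coincide for mir-451a and mir-451b at 35.7 and lie apart for mir-3065 and mir-338 and for mir-219b and mir-219a-2.

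Across the 12 libraries, mmu-mir-338 and mmu-mir-219b had a Pearson r of -0.261 (permutation p = 0.419, adjusted 0.594 over 2 relations) and a Spearman rho of -0.322 (permutation p = 0.306, adjusted 0.370). Without WT + EtOH replicate 1 and TLR4-KO replicate 1, the libraries farthest from the median of mmu-mir-338, r was 0.417, so the sign rested on those libraries. With the group means removed r was -0.270. For mmu-mir-338 and mmu-mir-3065, r was -0.176 (permutation p = 0.594) and rho was -0.284 (permutation p = 0.370). Here r was -0.587 without the same libraries and -0.164 with the group means removed.

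**Figure D5:**
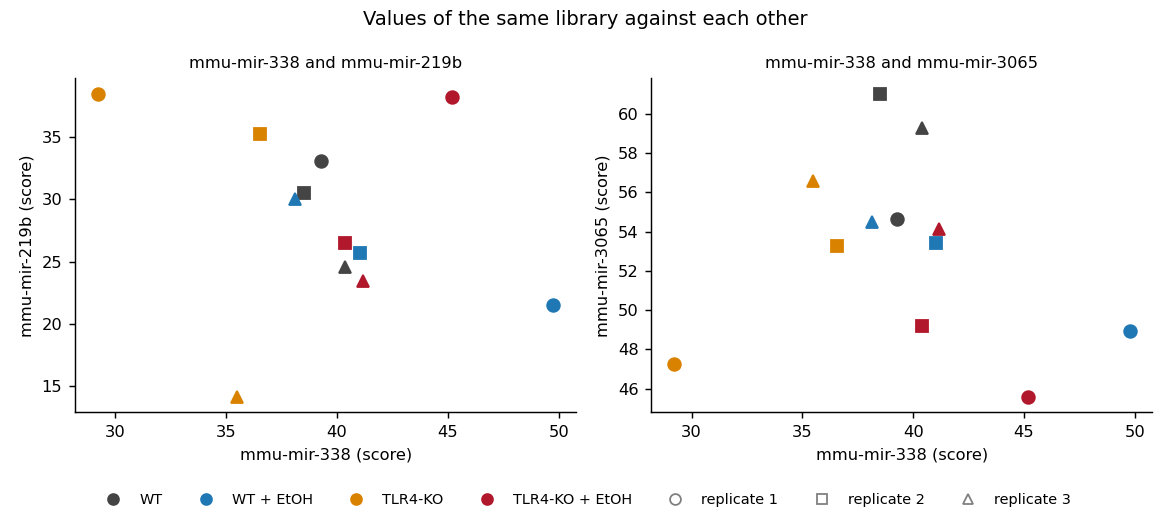
Scores (no unit) of mmu-mir-219b (left) and mmu-mir-3065 (right) against mmu-mir-338, 1 point per library, with colours for the group and symbols for the replicate number. TLR4-KO replicate 1 and WT + EtOH replicate 1 lie at the ends of the mmu-mir-338 axis, at 29.2 and 49.8.

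Among 188 other precursors above 0 in all 12 libraries, those whose scores followed mmu-mir-338 most closely were mmu-mir-1839 (r = 0.900), mmu-mir-532 (0.894), mmu-mir-106b (0.891), mmu-mir-3086 (0.809) and mmu-let-7a-2 (0.746). For mmu-mir-219b they were mmu-mir-380 (r = 0.801), mmu-mir-345 (0.747), mmu-mir-425 (0.708), mmu-mir-382 (0.694) and mmu-mir-3544 (0.682). These r describe the highest of 188 over 12 shared libraries. mmu-mir-3065, which was among the 188, was in neither set of 5.

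Other miRNAs linked to the oligodendrocyte lineage were taken as a list of 15 precursors in the table, of which 10 were above 0 and 5 were listed at 0 throughout. Limma called 0 of the 10 in each of the 7 comparisons, with 0 to 3 at an unadjusted p under 0.05. At an unadjusted p under 0.05 it found 1 of 10 higher for WT + EtOH vs. WT, beside 36 of the 324 precursors above 0 (6.11% of all 589). For TLR4-KO + EtOH vs. TLR4-KO it found 1 higher and 2 lower, beside 25 and 16 of the 324 (4.24% and 2.72% of all 589). The median difference of the 10 was -0.101 for WT + EtOH vs. WT and -0.215 for TLR4-KO + EtOH vs. TLR4-KO, where the median of the 324 precursors above 0 was 0 in both. For TLR4-KO vs. WT it was 2.76, again beside 0. Here 2 were higher and 1 lower at an unadjusted p under 0.05, beside 35 and 37 of the 324 (5.94% and 6.28% of all 589).

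Within the list, mmu-mir-138-1, linked to early oligodendrocyte differentiation, scored between 86.9 and 93.7 in all 12 libraries. mmu-mir-146a, known for restraining Toll-like receptor signalling and also expressed in leukocytes, scored 46.4, 46.4 and 48.6 in WT, 37.8, 42.5 and 42.5 in WT + EtOH, 29.6, 36.8 and 39.1 in TLR4-KO, and 58.3, 46.4 and 42.1 in TLR4-KO + EtOH. Like mmu-mir-338 it had TLR4-KO replicate 1 as its lowest library. Its difference was -12.0 for TLR4-KO vs. WT (adjusted p = 0.217 in limma) and 13.8 for alcohol in TLR4-KO mice (adjusted p = 0.394 in limma). Other members of the list went the other way. For alcohol in TLR4-KO mice mmu-mir-17 differed by -21.1 and mmu-mir-92a-1 by -9.31 (adjusted p = 0.637 and 0.569 in limma). For TLR4-KO vs. WT mmu-mir-92a-1 differed by 9.31 and mmu-mir-145a by 6.91 (adjusted p = 0.287 and 0.192 in limma). Both differences of mmu-mir-92a-1 rest on the same scores, 10.9 in TLR4-KO replicate 1 and 17.0 in TLR4-KO replicate 3. It was listed at 0 in every other library.

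Markers of other cells were measured beside these values. The summed score of 11 neuronal precursors was between 457 and 477 for WT libraries and between 463 and 517 for WT + EtOH libraries. It was between 472 and 498 for TLR4-KO libraries and between 475 and 490 for TLR4-KO + EtOH libraries, and limma called 0 of 11 in each comparison. For WT + EtOH vs. WT, 1 neuronal precursor was higher and 2 were lower at an unadjusted p under 0.05. That was 3 of 11, beside 74 of the 324 above 0 (12.6% of all precursors), and the other comparisons gave 0 to 3. Of 5 microglial and leukocyte precursors, mmu-mir-223, a defining myeloid marker, was at 0 in all libraries. The median difference of the 4 above 0 was -1.40 for WT + EtOH vs. WT and -2.22 for TLR4-KO vs. WT. In these comparisons mmu-mir-142a, a marker of blood-derived cells and microglia, differed by -2.81 and -11.8 and mmu-mir-146a by -6.21 and -12.0, none past the adjusted threshold in limma. In the other direction mmu-mir-150, of lymphocytes, rose by 7.41 in WT + EtOH vs. WT (adjusted p = 0.0444 in limma) and by 9.28 in TLR4-KO vs. WT (adjusted p = 0.00958 in limma). The erythroid mmu-mir-451a fell by 14.6 and by 17.6 in the same comparisons (adjusted p = 0.0346 and 0.00948 in limma). The other erythroid precursor, mmu-mir-144, scored 4.20, 8.17 and 0 in WT and 16.0, 0 and 0 in WT + EtOH. It was at 0 in all libraries of TLR4-KO genotype. Its mean was thus higher in WT + EtOH than in WT, opposite to mmu-mir-451a, and lower in TLR4-KO than in WT. Neither difference of mmu-mir-144 passed the adjusted threshold in limma. The summed erythroid score was between 46.3 and 58.4 for WT libraries and between 35.3 and 47.6 for WT + EtOH libraries. It was between 26.3 and 33.8 for TLR4-KO libraries and between 24.5 and 31.9 for TLR4-KO + EtOH libraries. mmu-mir-150 and mmu-mir-451a thus moved in the comparison in which mmu-mir-338 and mmu-mir-219a-2 had lower scores in all 3 untreated TLR4-KO libraries, and their part in those values was not tested. Limma called 0 of 3 vessel precursors in each comparison, but all 3 had an unadjusted p under 0.05 for WT + EtOH vs. WT, as did 12.6% of all precursors. These were mmu-mir-126a, of endothelium, at -6.58, mmu-mir-143, of smooth muscle, at -6.45, and mmu-mir-145a, its neighbour, at 8.09 (adjusted p = 0.289, 0.0649 and 0.151 in limma). For TLR4-KO vs. WT, 2 of 3 had an unadjusted p under 0.05, as did 12.2% of all precursors. They went in opposite directions, mmu-mir-143 at -4.53 and mmu-mir-145a at 6.91. Limma called 0 of 3 choroid plexus precursors in each comparison, and 2 of 3 were higher at an unadjusted p under 0.05 for alcohol averaged over genotypes, beside 4.75% of all precursors. These were mmu-mir-204 at 5.32 and mmu-mir-448 at 6.55, while mmu-mir-211 went the other way at -3.68. The part of vessel and choroid plexus RNA in the values of mmu-mir-338 was not tested.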

How the data were processed

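Small RNA of mouse cortex was sequenced in 12 libraries, 3 for each of 4 groups, each pooled from 3 mice. Per the labels and the submitters' processing notes, reads were checked with FastQC 0.11.6, trimmed with Cutadapt and aligned to GRCm38 with Bowtie2 2.2.5 and TopHat. The paper describes mapping to databases of non-coding RNA, and for the miRNA profile to a small RNA database by Burrows-Wheeler Alignment. The authors deposited 1 table of normalised scores per precursor; its values are not counts, have no stated unit and repeat between libraries, 90.9 to 96.1% of the levels of a library occurring in others, so differences are in score units and are not folds. The study's count model could not be used on them. Read depth is not in the table, so no counting interval was computed.

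The deposited scores were fitted without transformation in limma 3.58.1 (R 4.3.3), 1 mean per group over all 12 libraries, with Benjamini-Hochberg adjustment over 589 precursors and a threshold of 0.05. The 265 precursors at 0 throughout stayed in that adjustment and in the shares of all precursors. Exact permutation tests over libraries were two-sided (Python 3.11.15, scipy 1.17.1), and libraries were permuted within genotypes or treatments for averaged comparisons. For the difference of the alcohol effects they were permuted within genotypes, which does not test equal effects. Correlations used 100000 permutations. The fit was tested on simulated data. Same-numbered TLR4-KO and TLR4-KO + EtOH libraries deviated together (r = 0.133, 0.101 and 0.153), which comes from the data and not from the labels. This was not particular to those groups. WT + EtOH and TLR4-KO + EtOH gave 0.152, 0.0721 and 0.125. Over all pairs of groups the median was 0.113 for same numbers and -0.0376 for different numbers. The main fit did not use the numbers, and the replicate block changed no call of the members. Hairpins came from RefSeq for GRCm38.p6 and had the same positions in GENCODE.

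Named precursors were the members, their antisense partners, list members past the threshold and the 5 precursors most like each member above 0 in all libraries. Named after their values were seen were mmu-mir-3470b, mmu-mir-138-1, mmu-mir-142a, mmu-mir-146a, mmu-mir-17, mmu-mir-92a-1, mmu-mir-144 and the precursors at 0. So were the vessel and choroid plexus precursors and the pairs other than the members'. The members and lists were chosen with earlier results of these data known. Nothing says that libraries came from separate cages, so p-values measure the spread between these pools. Alternatives were another scaling, a filter on low values, fewer groups, a replicate block, a covariate of precursors above 0, 0 as missing, robust variances and leaving out each library.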

Additional observations from a re-analysis of the deposited data

How the results depend on the processing

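mmu-mir-338 passed the adjusted threshold in limma under no alternative run. The numbers of precursors called over the whole table moved more. With precursors above 0 in at least 3 libraries, WT + EtOH vs. WT gave 21 calls, TLR4-KO vs. WT 31, the difference of the alcohol effects 13 and averaged alcohol 0 (48 at an unadjusted p under 0.05). With the number of precursors above 0 as a covariate the calls were 59 for WT + EtOH vs. WT, 4 for TLR4-KO + EtOH vs. TLR4-KO, 63 for TLR4-KO vs. WT, 6 for TLR4-KO + EtOH vs. WT + EtOH, 58 for the difference, 25 for averaged alcohol and 38 for averaged genotype. With 0 as missing they were 0 for TLR4-KO + EtOH vs. TLR4-KO (31 unadjusted), 31 for TLR4-KO vs. WT, 1 for TLR4-KO + EtOH vs. WT + EtOH, 0 for averaged alcohol (33 unadjusted) and 5 for averaged genotype, and mmu-mir-219a-2 has no value in TLR4-KO. Quantile normalisation gave 0 for TLR4-KO + EtOH vs. TLR4-KO (36 unadjusted), 1 for TLR4-KO + EtOH vs. WT + EtOH and 5 for averaged genotype, and the fit of only the groups compared gave 0 for both of the first (25 unadjusted each). The cause was not tested. Deviations of same-numbered libraries correlated at -0.109 to 0.153 (median 0.113), with 10 of 18 over 0.1, and those of libraries with different numbers at a median of -0.0376, with 4 of 36 over 0.1, so the numbers were not taken to pair all groups. The replicate block gave 24 calls for TLR4-KO vs. WT and 3 for the difference, and changed no call of the 4 precursors. It took mmu-mir-3065 in WT + EtOH vs. WT from an unadjusted p of 0.0877 to 0.00287 (adjusted p = 0.0704 in limma). Leaving out 1 library gave 4 to 18, 0 to 4, 11 to 22, 0 to 3, 2 to 15, 2 to 8 and 2 to 12 calls in the order of the 7 comparisons. With the covariate mmu-mir-219b changed sign for alcohol in WT (0.610), alcohol in TLR4-KO (-2.68), genotype without alcohol (6.01) and the difference (-3.29), none past the threshold. Leaving out 1 library, mmu-mir-338 ran from -3.16 to 2.66 for TLR4-KO + EtOH vs. WT + EtOH. mmu-mir-219b then ran from -7.49 to 4.73 for alcohol in TLR4-KO, -4.70 to 7.52 and -0.754 to 6.66 for genotype without and with alcohol, -3.84 to 8.38 for the difference, -5.58 to 0.537 for averaged alcohol and -0.512 to 5.60 for averaged genotype. The correlation of mmu-mir-338 and mmu-mir-219b was 0.417 without 2 libraries. mmu-mir-3065 passed with the covariate in 5 comparisons, among them WT + EtOH vs. WT (-9.82, adjusted p = 0.00832 in limma) and TLR4-KO vs. WT (-11.4, adjusted p = 0.00478). With a tolerance of 5%, 2 antisense pairs had like values. Precursors near the lowest level of a library limit what can be said of mmu-mir-219a-1 and mmu-mir-219a-2.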
